A study of Mus musculus with 23 samples.

Results

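The comparison described here is the gain of Klrg1 among lymph node regulatory T (Treg) cells that already carry CD103. Its members are the 4 arrays titled as CD103+Klrg1+ (2 arrays) and CD103+Klrg1- (2 arrays), of 23 arrays in the series, and the 2 CD103-Klrg1- arrays entered the same fit to help estimate the spread. All 6 lymph node arrays held CD4+ Foxp3-GFP+ T cells from peripheral lymph nodes of male C57BL/6-Foxp3/GFP reporter mice aged 6 to 10 weeks, with the CD3+ B220- CD8a- CD11b/c- gate in common. Each array held RNA pooled from 4 to 6 mice, amplified over 2 rounds and hybridised to an Affymetrix M430v2 array. The labels name no treatment. The sort leaned on a GFP reporter of Foxp3, so cells that lack Foxp3 were outside the gate by design.

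The other 17 arrays served as a wider frame and also came from male mice aged 6 to 10 weeks, with 4 to 6 mice an array for LP, 2 to 3 for homeostatic and 5 to 10 for DEC cells. LP Treg and LP Tconv (2 arrays each) were Foxp3-GFP+ and Foxp3-GFP- cells of the small intestinal lamina propria of the same reporter strain. Homeostatic Foxp3+ and Foxp3- cells (3 arrays each) were recovered from spleen and lymph nodes of NOD RAG-/- hosts. BDC2.5/NOD Foxp3-GFP- CD4+ cells had been moved into these hosts. DEC CD25+ (3 arrays) and CD25- (4 arrays) cells descended from HA6.5 RAG-/- Balb/c CD4+CD25- cells transferred into Balb/c mice that were given the DEC-HAPeptide conjugate.

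Klrg1 is an inhibitory C-type lectin receptor that binds E-cadherin and related cadherins, and CD103, the integrin chain encoded by Itgae, pairs with integrin beta 7 to bind E-cadherin as well. Among Treg cells, both surface proteins are known from activated or effector cells that home to tissues, and Klrg1 marks a terminally differentiated fraction of them. Effector Treg cells are known for the transcription factor Prdm1 (Blimp-1), for granzyme B and for receptors that direct cells to skin and mucosa, whereas resting Treg cells keep genes of lymphoid recirculation.

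Promoter windows of 3 genes with large differences and of 1 gene that was high in a single subset are given first, because they are referred to beside the values. Each is the stretch of 250 bases before a RefSeq transcription start (build GRCm38.p6), written along the gene's own strand, and capitals mark matches to the motif letters TGANTCA (AP-1), TGTGGT (RUNX), TCACAC (T-box) and AAAGNGAAA (Blimp-1) on either strand. Gzmb lies on the minus strand at chr14:56262335-56262584, Havcr2 on the plus strand at chr11:46454681-46454930, Gpr83 on the plus strand at chr9:14859960-14860209 and Gbp2b on the plus strand at chr3:142594597-142594846.
Gzmb: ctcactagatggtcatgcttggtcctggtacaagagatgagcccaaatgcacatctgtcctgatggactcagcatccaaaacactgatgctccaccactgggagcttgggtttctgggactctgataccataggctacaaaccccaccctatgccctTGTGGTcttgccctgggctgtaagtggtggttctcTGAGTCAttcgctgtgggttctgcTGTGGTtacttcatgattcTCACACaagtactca
Havcr2: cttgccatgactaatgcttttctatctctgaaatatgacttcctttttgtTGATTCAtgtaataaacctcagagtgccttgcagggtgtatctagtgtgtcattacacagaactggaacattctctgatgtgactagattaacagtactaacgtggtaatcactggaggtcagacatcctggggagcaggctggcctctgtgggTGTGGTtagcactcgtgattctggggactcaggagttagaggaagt
Gpr83: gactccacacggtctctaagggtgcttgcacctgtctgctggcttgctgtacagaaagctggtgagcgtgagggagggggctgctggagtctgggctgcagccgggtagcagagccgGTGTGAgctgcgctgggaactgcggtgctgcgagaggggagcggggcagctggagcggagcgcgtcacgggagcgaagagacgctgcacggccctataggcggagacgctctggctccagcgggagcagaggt
Gbp2b: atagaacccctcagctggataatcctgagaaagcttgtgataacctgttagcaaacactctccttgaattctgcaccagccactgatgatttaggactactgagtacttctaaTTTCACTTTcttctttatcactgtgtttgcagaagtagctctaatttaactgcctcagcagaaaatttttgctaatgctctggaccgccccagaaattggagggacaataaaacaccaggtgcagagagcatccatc
The Gzmb window held the AP-1 letters TGAGTCA starting 58 bases before the start, the RUNX letters at 93 and 34 bases and the T-box letters at 15 bases. In the Havcr2 window the AP-1 letters lay 200 bases and the RUNX letters 46 bases before the start. Gpr83 had the T-box letters on the opposite strand at 133 bases, and Gbp2b had the Blimp-1 letters on the opposite strand at 137 bases. The windows of Anxa1, Lgals3 and Hepacam2 held no match to the 7 motifs searched, which says only that these letters were not in them.

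The 6 lymph node arrays were alike in scale, with median intensities from 75.5 to 78.2. Pearson's correlation across all genes tested was 0.975 between the CD103+Klrg1+ arrays, 0.984 between the CD103+Klrg1- arrays and 0.963 to 0.976 between arrays of these 2 groups. RNA quality, read as the log2 difference between 3' and 5' control probe sets, spanned 2.80 to 3.15 for Gapdh and 1.60 to 2.21 for Actb. A gene was tested when its mean in at least 1 lymph node group exceeded 6.26 on the log2 intensity scale, the median of these arrays, which left 11444 genes. With residual degrees of freedom of 3, the median 95% interval without adjustment was 0.43 to either side on the log2 scale. Smaller differences could therefore not be told from 0 in most genes. A call after adjustment needed more: the smallest called difference was 0.93, and the largest unadjusted p among called genes was 0.000354 (limma).

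The sort was visible in the genes of its markers. Klrg1 itself measured 14.14 and 14.18 log2 intensity on the CD103+Klrg1+ arrays, 8.95 and 8.86 on the CD103+Klrg1- arrays and 7.53 and 7.69 on the CD103-Klrg1- arrays. Both CD103+Klrg1+ arrays lay far above all others, a difference of 5.26 ± 0.14 (SE) or 38.3-fold that checks the label and is no finding. Itgae, the CD103 gene, measured 13.48 and 13.04 in CD103+Klrg1+ cells, 12.59 and 13.02 in CD103+Klrg1- cells and 8.41 and 7.77 in CD103-Klrg1- cells. The 4 CD103+ arrays thus sat together, with a Klrg1-step difference in Itgae of 0.46 ± 0.28 (limma, adjusted p = 0.925). Foxp3, the defining Treg factor, gave 11.50 and 10.89 in CD103+Klrg1+ cells, against 10.58 and 11.08 in CD103+Klrg1- cells, which overlap (0.37 ± 0.29, 95% interval -0.34 to 1.07). Il2ra, the CD25 chain, differed by -0.16 ± 0.24 and Cd4 by -0.08 ± 0.26, neither past the threshold, and leaving out single arrays turned both signs.

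Markers of other cell types were detected on all 6 arrays, and their summed levels were mostly higher on the CD103+Klrg1+ arrays. Ighm, an immunoglobulin heavy chain gene, measured 12.60 and 12.21 in CD103+Klrg1+ cells, against 11.87 and 12.02 in CD103+Klrg1- cells, and Ms4a1, the CD20 gene, 9.84 and 10.88, against 9.61 and 8.59. Of the 5 Ighm probe sets above the filter, 2 differed in the opposite direction. The summed intensity of 16 B cell markers was 4328 and 7985 on the CD103+Klrg1+ arrays, 3936 and 2849 on the CD103+Klrg1- arrays and 3864 and 3780 on the CD103-Klrg1- arrays, with Ebf1 and Fcrla under the filter on all 6. For 28 myeloid and dendritic cell markers it was 3151 and 4978 in CD103+Klrg1+ cells, against 2674 and 2552 in CD103+Klrg1- cells, with Itgam, Cd68, Clec4a2, C1qa, C1qb and C1qc under the filter throughout. For 8 CD8 T cell markers it was 2605 and 3238 in CD103+Klrg1+ cells, against 1498 and 1299 in CD103+Klrg1- cells. Within that list Ccl5, a chemokine that Treg cells can also express, averaged 11.10 in CD103+Klrg1+ cells and 9.48 in CD103+Klrg1- cells (1.62 ± 0.28), while Cd8a differed by 0.29 ± 0.16, and neither passed. The list did not rise as a whole: of its 7 tested members 3 differences were positive and 4 negative, with a median of -0.03. For 8 plasma cell markers the sum was 10711 and 7917 in CD103+Klrg1+ cells, against 7191 and 7639 in CD103+Klrg1- cells. For 25 natural killer genes other than Klrg1 it was 2172 and 3405 in CD103+Klrg1+ cells, against 2186 and 1924 in CD103+Klrg1- cells, with 13 under the filter on all 6 arrays, Ncr1 among them. Replicate 2 of the CD103+Klrg1+ arrays was the higher for the B cell, myeloid, CD8 and natural killer sums and replicate 1 for the plasma cell sum. The part of such cells in the results below was not tested, and in sorted pools more transcript per cell and more cells with the transcript cannot be told apart.

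The gain of Klrg1 went with a change in 83 genes at a Benjamini-Hochberg adjusted p under 0.05, which is 0.725% of the genes tested. Of these, 52 were higher in CD103+Klrg1+ than in CD103+Klrg1- cells (0.454%) and 31 were lower (0.271%). The differences spanned 0.93 to 5.26 on the log2 scale, 81 of them at least 2-fold, while the median over all genes tested was 0.0048. In all 83 every CD103+Klrg1+ array lay on one side of both CD103+Klrg1- arrays, which was true of 15.4% of all genes upward and 15.9% downward. A call needs a difference that is large beside the spread, so this follows largely from the call and adds no support. The calls rest on both CD103+Klrg1- arrays: leaving out either 1 ended most of them, and without replicate 2 only Klrg1, Gzmb and Hepacam2 kept theirs. Leaving out either CD103+Klrg1+ array also ended a smaller part of the 83 calls, while other genes were called instead. Few calls were lost without either 1 of the CD103-Klrg1- arrays. Unadjusted, 898 genes (7.85%) had a p under 0.05.

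**Figure D1:**
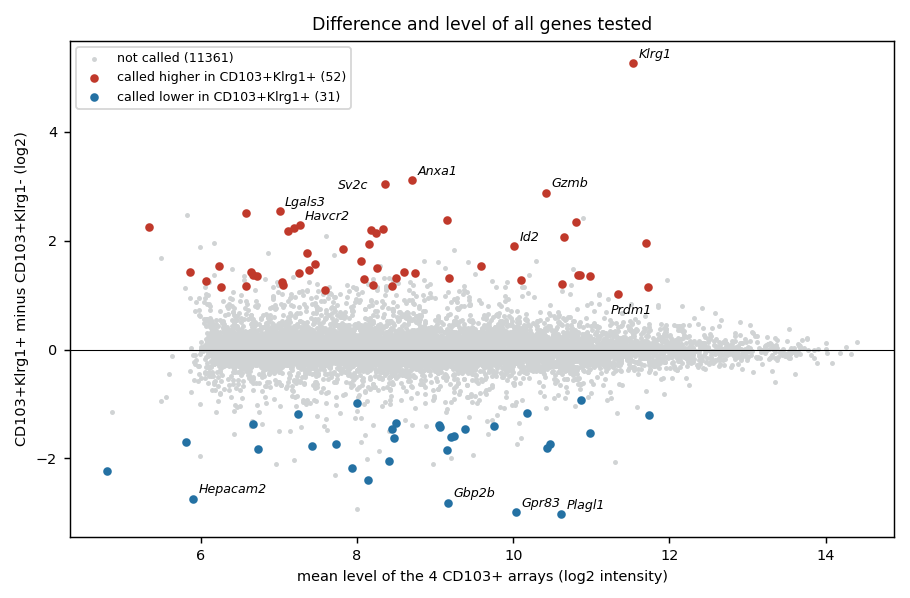
Difference between CD103+Klrg1+ and CD103+Klrg1- cells (log2, vertical axis) against the mean level of the 4 CD103+ arrays (log2 intensity, horizontal axis) for the 11444 genes tested; red points are the 52 genes called higher, blue points the 31 called lower and grey points the rest. Klrg1 stands alone at 5.26, and the other called genes lie at low and high levels alike.

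Among the genes that rose, the largest after Klrg1 was Anxa1, which encodes annexin A1, a phospholipid-binding protein with anti-inflammatory activity. It measured 10.09 and 10.43 on the CD103+Klrg1+ arrays, 7.17 and 7.13 on the CD103+Klrg1- arrays and 6.31 and 6.51 on the CD103-Klrg1- arrays. Both CD103+Klrg1+ arrays stood well clear of the other 4, a rise of 3.11 ± 0.17 or 8.62-fold (limma, adjusted p = 0.00176). A second Anxa1 probe set, under the filter, differed by 0.08, and the mean of both gave 1.60. Leaving out CD103+Klrg1- replicate 2 ended the Anxa1 call (adjusted p = 0.0529).

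Gzmb, the granule protease granzyme B, measured 11.83 and 11.88 on the CD103+Klrg1+ arrays, 8.75 and 9.21 on the CD103+Klrg1- arrays and 6.45 and 6.31 on the CD103-Klrg1- arrays. The 3 subsets formed separate levels with no overlap, and the Klrg1 step amounted to 2.88 ± 0.19 or 7.36-fold (adjusted p = 0.00355). It stayed past the threshold without any 1 array. Of the 4 genes whose windows are printed above, Gzmb held the most motif matches.

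Lgals3, which encodes the sugar-binding lectin galectin-3, measured 8.49 and 8.07 on the CD103+Klrg1+ arrays, 5.78 and 5.70 on the CD103+Klrg1- arrays and 6.15 and 5.98 on the CD103-Klrg1- arrays. The 4 Klrg1- arrays lay below the filter, so the rise is given as at least 5.81-fold (2.54 ± 0.18, adjusted p = 0.00427). Havcr2, the inhibitory receptor TIM-3, gave 8.65 and 8.16 in CD103+Klrg1+ cells, 5.85 and 6.40 in CD103+Klrg1- cells and 4.57 and 4.74 in CD103-Klrg1- cells. Here too the groups were apart and the lower mean lay under the filter, for a rise of at least 4.87-fold (2.28 ± 0.25, adjusted p = 0.0154). Both calls were lost without either 1 of the CD103+Klrg1- arrays.

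The other large rises spanned several functions. Sv2c, a synaptic vesicle glycoprotein, had 9.70 and 10.05 in CD103+Klrg1+ cells, against 6.86 and 6.80 in CD103+Klrg1- cells. Snai2, the transcriptional repressor Slug, had 7.71 and 7.96 in CD103+Klrg1+ cells, against 5.48 and 5.18 in CD103+Klrg1- cells. Both genes were apart between the groups by more than 2 log2 units, the rise of Snai2 being at least 5.67-fold since its lower mean lay under the filter. Frmd5 (a FERM-domain protein, 2.39 ± 0.17), Myadm (a membrane protein, 2.35 ± 0.20), Jcad (an endothelial junction protein, at least 4.76-fold), Slc15a3 (a lysosomal peptide and histidine transporter, at least 4.69-fold) and Msrb3 (a methionine sulfoxide reductase, 2.22 ± 0.20) completed the largest 12. Where a lower mean lies under the filter the order among them is not known. Lgals3, Snai2, Havcr2, Slc15a3 and Jcad passed the filter only through their CD103+Klrg1+ means, the Jcad arrays being at 6.53 and 6.40. The lower mean of the 2 CD103+ groups lay under the filter in 14 of the 52 risen and 5 of the 31 fallen genes. The adjusted p of these 12 ran from 6.19e-05 to 0.0281. Myadm lost its call when the spread came from all 23 arrays (adjusted p = 0.067) or from 10 C57BL/6 arrays (adjusted p = 0.399), and means over probe sets lowered Msrb3 to 1.15.

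**Figure D2:**
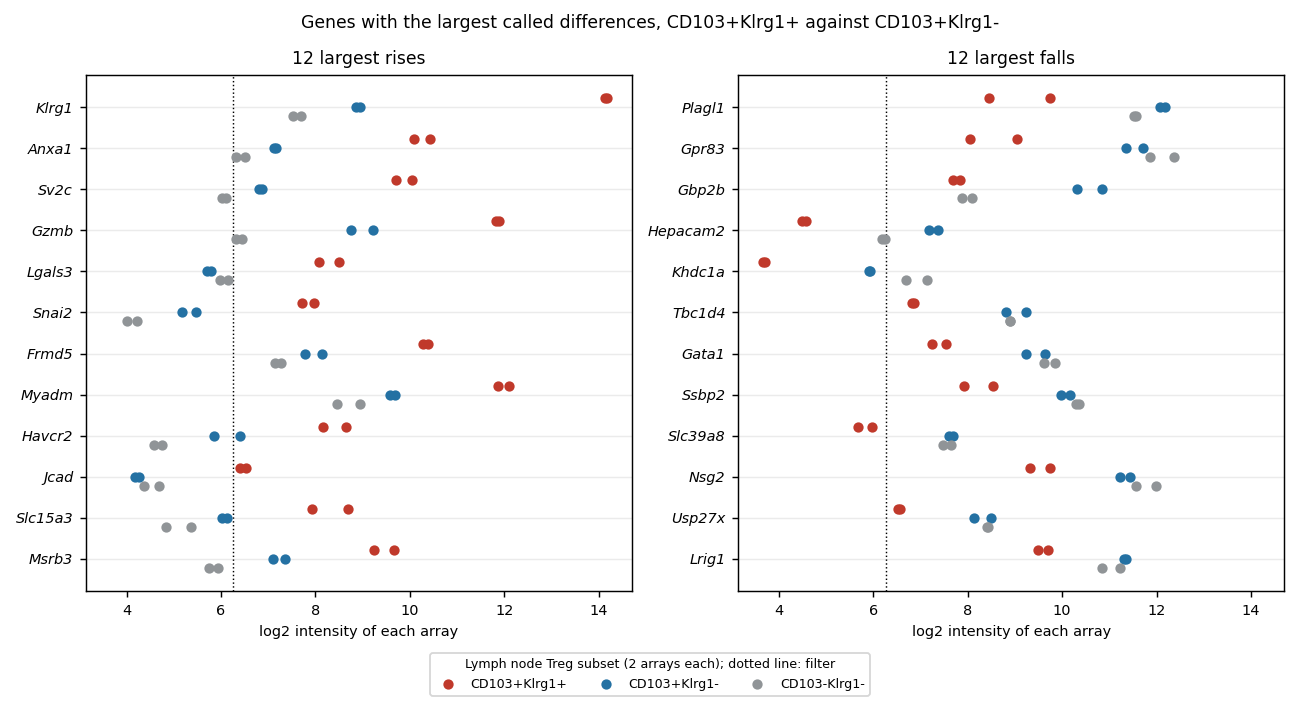
Log2 intensity on each lymph node array (horizontal axis) of the 12 genes with the largest rise (left) and the 12 with the largest fall (right); each point is 1 array, red for CD103+Klrg1+, blue for CD103+Klrg1- and grey for CD103-Klrg1-, and the dotted line is the filter at 6.26. Red points lie apart from the blue ones in each row, Klrg1 at 14.14 and 14.18 being the highest, and the red Plagl1 and Gpr83 points are more than 0.9 apart from each other.

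On the falling side, the gene with the largest difference was Plagl1, an imprinted zinc-finger transcription factor. It measured 9.75 and 8.46 on the CD103+Klrg1+ arrays, 12.19 and 12.06 on the CD103+Klrg1- arrays and 11.56 and 11.51 on the CD103-Klrg1- arrays. The CD103+Klrg1+ arrays were lower than all others but also far from each other, for a fall of -3.02 ± 0.38 (adjusted p = 0.0259). Another Plagl1 probe set gave -0.55, the mean over its probe sets -1.49, which did not pass, and the call was also lost with the spread from 10 C57BL/6 arrays.

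Gpr83, a G protein-coupled receptor known as a Treg signature gene, measured 9.04 and 8.05 on the CD103+Klrg1+ arrays, 11.70 and 11.36 on the CD103+Klrg1- arrays and 12.37 and 11.85 on the CD103-Klrg1- arrays. The 4 Klrg1- arrays kept a high level and both Klrg1+ arrays fell below them, by -2.99 ± 0.35 or 7.93-fold (adjusted p = 0.0193). Its 2 probe sets gave -2.99 and -2.75. Like Lgals3 and Havcr2, Gpr83 was past the threshold only with both CD103+Klrg1- arrays.

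Gbp2b and Hepacam2 were higher on the CD103+Klrg1- arrays than on the other 4, and they were not the only falls with that order. Gbp2b, an interferon-inducible guanylate-binding GTPase, measured 7.83 and 7.69 on the CD103+Klrg1+ arrays, 10.31 and 10.85 on the CD103+Klrg1- arrays and 7.88 and 8.10 on the CD103-Klrg1- arrays. It was thus high on the CD103+Klrg1- arrays and at one low level on the other 4, with a fall of -2.82 ± 0.21 at the Klrg1 step (adjusted p = 0.00477). Hepacam2, an immunoglobulin-family adhesion protein, measured 4.49 and 4.58 in CD103+Klrg1+ cells, 7.37 and 7.18 in CD103+Klrg1- cells and 6.19 and 6.26 in CD103-Klrg1- cells. The CD103+Klrg1+ and CD103-Klrg1- arrays of Hepacam2 were under the filter, so the fall is at least 6.69-fold (-2.74 ± 0.15, adjusted p = 0.00176). Its CD103 step was not called (limma, adjusted p = 0.0838).

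The remaining large falls were Khdc1a, Tbc1d4, Gata1, Ssbp2, Slc39a8, Nsg2, Usp27x and Lrig1. Tbc1d4, a Rab GTPase-activating protein, had 6.82 and 6.86 in CD103+Klrg1+ cells, against 9.24 and 8.81 in CD103+Klrg1- cells. Gata1, a transcription factor best known from red cell and mast cell lineages, had 7.53 and 7.25 in CD103+Klrg1+ cells, against 9.24 and 9.63 in CD103+Klrg1- cells. Both fell by over 2 log2 units with no overlap, and Tbc1d4 gave -1.36 as a mean over its probe sets. Ssbp2, a single-stranded DNA-binding protein, differed by -1.84 ± 0.23, Slc39a8, a zinc transporter, was lower by at least 3.55-fold with its CD103+Klrg1+ arrays under the filter, Nsg2, a neuronal vesicle protein, differed by -1.80 ± 0.22, and Lrig1, a brake on growth factor receptors, by -1.74 ± 0.18. Usp27x, a deubiquitinase, differed by -1.77 ± 0.16, or -0.85 as a mean over probe sets. Khdc1a is called (adjusted p = 0.00627) but gets no fold, since its CD103+ arrays all lay under the filter at 3.71, 3.66, 5.94 and 5.90. With the spread taken from all 23 arrays or from 10 C57BL/6 arrays, the calls of Tbc1d4, Lrig1, Ssbp2, Slc39a8, Nsg2 and Jcad were each lost in at least 1 of those settings.

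Gene lists put these changes beside their pathways, described by counts against the background shares above. Of 21 tested transcription factors of effector and tissue Treg cells, 3 rose, none fell, and the median difference was 0.44. Id2, which blocks E proteins, measured 11.03 and 10.90 in CD103+Klrg1+ cells, against 9.24 and 8.89 in CD103+Klrg1- cells, a rise of 1.90 ± 0.20 (adjusted p = 0.0154). Prdm1 (Blimp-1) measured 11.89 and 11.80 in CD103+Klrg1+ cells, against 10.76 and 10.89 in CD103+Klrg1- cells, a rise of 1.02 ± 0.14. Rora, a nuclear receptor, differed by 1.20 ± 0.18 (adjusted p = 0.0489). All 3 were apart between the groups, but Prdm1 and Rora were near the threshold: 9 of 18 other settings ended the Prdm1 call and 10 of 18 the Rora call. Ahr, the aryl hydrocarbon receptor, did not pass at 0.83 ± 0.14 (adjusted p = 0.0682). In 12 of the 21 genes the CD103+Klrg1+ arrays lay above the CD103+Klrg1- ones and in 1, Bhlhe40, below.

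Factors of naive and central T cells leaned the other way, with a median of -0.35 over 17 tested. Plagl1 was the 1 member called, and 14 of 17 differences were negative. Id3, the E protein inhibitor of resting T cells, measured 7.02 and 6.73 in CD103+Klrg1+ cells, against 8.60 and 8.09 in CD103+Klrg1- cells (-1.47 ± 0.25, adjusted p = 0.0693). Myc, a transcription factor of growth, gave -0.94 ± 0.15 (adjusted p = 0.0533) and Bach2, a repressor of effector programmes, -1.31 ± 0.42 (adjusted p = 0.378). These 3 had arrays that were apart but did not pass. Of 17 recirculation and retention genes 0 were called by limma, 5 had an unadjusted p under 0.05, and Ccr7, the lymph node homing receptor, gave -1.58 ± 0.38 (adjusted p = 0.178).

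Annexins, S100 proteins and galectins formed the list with the most rises beside the Treg signature. Of 23 tested members 4 rose, 0 fell, and 22 of 23 differences were positive with a median of 0.46. Besides Anxa1 and Lgals3 these were S100a4 and S100a6, calcium-binding proteins linked to motility. S100a6 measured 12.81 and 12.53 in CD103+Klrg1+ cells, 10.93 and 10.50 in CD103+Klrg1- cells and 9.32 and 8.92 in CD103-Klrg1- cells. S100a4 measured 12.07 and 11.31 in CD103+Klrg1+ cells, 9.83 and 9.41 in CD103+Klrg1- cells and 7.96 and 7.93 in CD103-Klrg1- cells. Both genes lay in 3 separate steps, with Klrg1-step rises of 1.95 ± 0.22 and 2.07 ± 0.27, and both calls were lost with the spread from 10 C57BL/6 arrays. Lgals1 (galectin-1) differed by 1.48 without passing, and 13 of the 23 genes had higher CD103+Klrg1+ arrays. Several of these genes are also expressed by myeloid cells, whose summed markers are given above.

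Of 11 chemokine receptors of inflamed and peripheral tissue, Ccr10 and Ccr2 rose and 10 of 11 differences were positive. Ccr10, a skin and mucosal homing receptor, measured 8.17 and 8.32 in CD103+Klrg1+ cells, against 6.46 and 6.88 in CD103+Klrg1- cells (1.57 ± 0.18, adjusted p = 0.0192). Ccr2, the receptor for Ccl2, measured 11.51 and 11.81 in CD103+Klrg1+ cells, against 10.11 and 10.52 in CD103+Klrg1- cells (1.35 ± 0.19, adjusted p = 0.0388), and lost its call with the spread from all 23 arrays. Cxcr6, a tissue-retention receptor, did not pass at 2.08 ± 0.32 (adjusted p = 0.0528), but 12 of 18 other settings called it. Gcnt1, which branches the O-glycans that carry selectin ligands, rose by 1.53 ± 0.15 (adjusted p = 0.00991), the 1 called of 20 glycan enzymes. Among 22 integrin and adhesion genes 0 were called by limma in the fit without a replicate term, with 6 at an unadjusted p under 0.05.

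Cytotoxic and inhibitory receptor genes changed singly. Gzmb was the 1 of 19 tested granule genes called, with a list median of 0.02, and Gzma, another granzyme, had 6.68 and 7.77 in CD103+Klrg1+ cells, against 5.76 and 6.00 in CD103+Klrg1- cells without passing (adjusted p = 0.253). Of 23 coinhibitory and costimulatory receptors Havcr2 rose, Cd96 fell, and the median was -0.02. Cd96, a receptor for nectin-family ligands, measured 9.10 and 9.01 in CD103+Klrg1+ cells, against 10.35 and 10.56 in CD103+Klrg1- cells, a fall of -1.40 ± 0.19 (adjusted p = 0.031). Its groups were apart by over 1 log2 unit. Fgl2, a secreted suppressor molecule of Treg cells, rose by 1.37 ± 0.19, the 1 called of 15 cytokines and mediators, while Il10 gave 1.01 ± 0.46 (adjusted p = 0.709). The Fgl2 call was lost with the spread from all 23 or from 10 C57BL/6 arrays and with means over probe sets, and the Cd96 call with the spread from 10 C57BL/6 arrays. The Treg signature list, drawn up with these data known, held 4 rises (Klrg1, Gzmb, Fgl2, Prdm1) and 2 falls (Gpr83, Plagl1) among 36 tested, the rise of Klrg1 being set by the sort.

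Signalling and division genes had no call in the fit without a replicate term. By limma 0 of 37 T cell receptor signalling genes were called (7 at an unadjusted p under 0.05, median below 0.01 in size). Of 29 immediate early and NF-kB response genes 0 were called (6 at an unadjusted p under 0.05), and the largest, Fos, differed by 2.41 ± 0.46 (adjusted p = 0.0865). Of 58 cell cycle genes 0 were called (7 at an unadjusted p under 0.05), but 47 differences were positive, the median was 0.48 and 17 genes had higher CD103+Klrg1+ arrays. Mki67, the proliferation marker, measured 11.04 and 10.06 in CD103+Klrg1+ cells, against 9.87 and 8.73 in CD103+Klrg1- cells. The difference of 1.25 ± 0.71 did not pass (adjusted p = 0.892), and the array numbered 1 was the higher in each of the 3 subsets.

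Genes shared with antigen-presenting cells included 2 rises. Ctsh, the protease cathepsin H, measured 9.15 and 9.48 in CD103+Klrg1+ cells, 7.56 and 6.78 in CD103+Klrg1- cells and 7.56 and 7.87 in CD103-Klrg1- cells, the 1 called of 17 myeloid markers (2.14 ± 0.28, adjusted p = 0.0282). Lgmn, the endosomal protease legumain, measured 8.36 and 8.14 in CD103+Klrg1+ cells, against 6.40 and 6.55 in CD103+Klrg1- cells, the 1 called of 14 class II pathway genes (1.78 ± 0.16). In both, the CD103+Klrg1+ arrays were near each other, while the CD103+Klrg1- arrays of Ctsh lay further apart, at 7.56 and 6.78. Both calls were lost with the spread from all 23 or from 10 C57BL/6 arrays. Of 13 tested B cell markers 0 were called by limma (5 at an unadjusted p under 0.05), all 13 differences were positive and the median was 0.54. Csf1r, a myeloid growth factor receptor, read 7.36 and 9.25 on the CD103+Klrg1+ arrays, against 7.49 and 7.70 on the CD103+Klrg1- arrays.

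**Figure D3:**
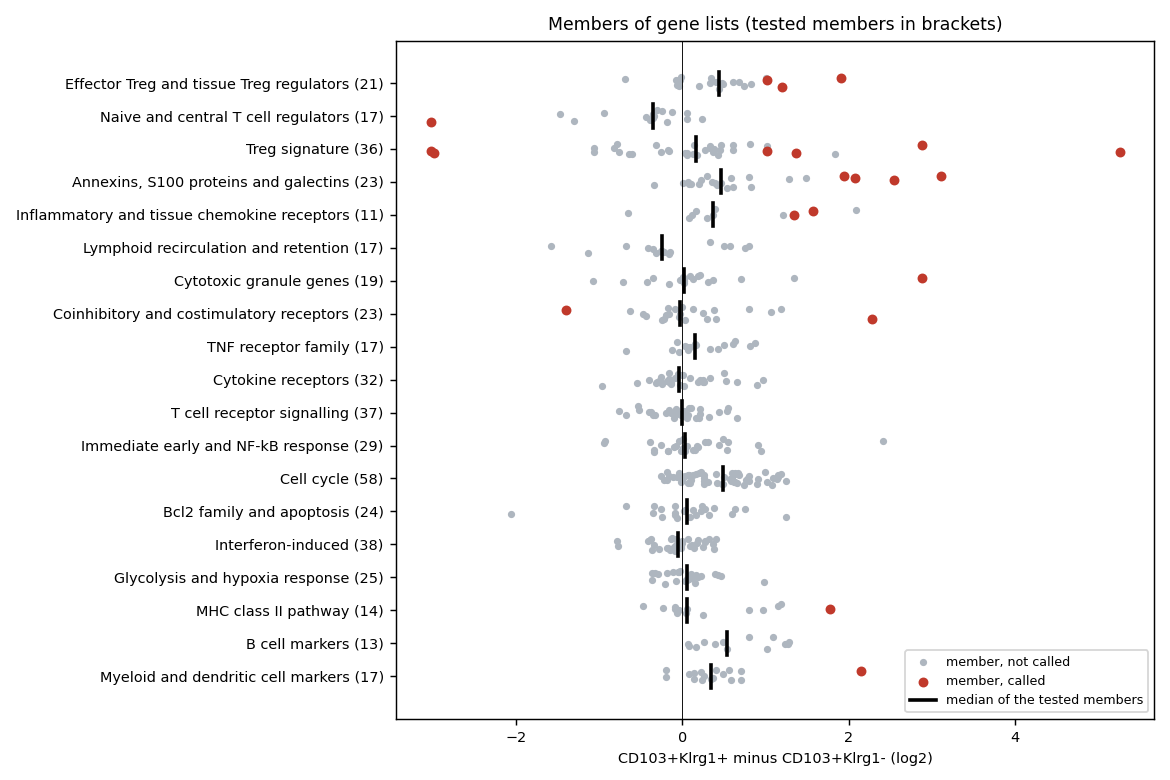
Differences between CD103+Klrg1+ and CD103+Klrg1- cells (log2, horizontal axis) of the tested members of 19 gene lists (rows, number tested in brackets); red points are called genes, grey points the others and black bars the list medians. Red points are few in any row, 6 in the Treg signature and 4 among annexins, S100 proteins and galectins, and the cell cycle median is 0.48 with 0 called.

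The Klrg1 step can be set beside the CD103 step, CD103+Klrg1- against CD103-Klrg1- cells, with the caution that both use the CD103+Klrg1- arrays, so their values are not independent. The CD103 step called 18 genes higher (0.157%) and 1 lower (0.00874%), and CD103+Klrg1+ against CD103-Klrg1- cells, which spans both, called 341 higher (2.98%) and 124 lower (1.08%). Gzmb differed by 2.88 ± 0.19 at the Klrg1 step and by 2.60 ± 0.19 at the CD103 step. Prdm1 differed by 1.02 ± 0.14 at the Klrg1 step and 2.11 ± 0.14 at the CD103 step, Fgl2 by 1.37 ± 0.19 and 2.80 ± 0.19, Gcnt1 by 1.53 ± 0.15 and 2.22 ± 0.15, and Ccr2 by 1.35 ± 0.19 and 2.58 ± 0.19. The difference between the steps passed the test for none of these 5 genes: Prdm1 gave -1.09 ± 0.25 (adjusted p = 0.77), Fgl2 -1.43 ± 0.34 (adjusted p = 0.841), and Gzmb, Gcnt1 and Ccr2 had adjusted p values near 1. Over the 52 risen genes the median was 1.48 at the Klrg1 step and 0.75 at the CD103 step, and over the 31 fallen genes -1.62 and -0.02. These genes were selected by their Klrg1 step, and the CD103+Klrg1- arrays enter the 2 steps with opposite sign. The medians therefore cannot show which step was the larger.

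A direct test of the Klrg1 step minus the CD103 step called 3 genes, 0.0262% of those tested. For Klrg1 the Klrg1 step was larger by 3.97 ± 0.25, as its place in the sort fixes. For Gbp2b the contrast was -5.41 ± 0.37, made of -2.82 at the Klrg1 step and 2.59 ± 0.21 at the CD103 step. Hepacam2 had -3.79 ± 0.25, made of -2.74 and 1.05 ± 0.15. Each had an adjusted p of 0.00894. Levels under the filter enter the values of Hepacam2, Lgals3, Jcad and Dsp, so their sizes are uncertain. Lgals3 (2.87 ± 0.32), Jcad (2.56 ± 0.28), Dsp, a desmosome protein (-3.12 ± 0.33), and Itgae (-4.26 ± 0.48) followed without passing, each with an adjusted p of 0.0982. Anxa1 (2.36 ± 0.30, adjusted p = 0.161) and Gpr83 (-2.41 ± 0.60, adjusted p = 0.887) did not pass either, so a difference between their steps was not detected with these arrays. Without either CD103+Klrg1- array 0 genes passed this contrast in limma (456 and 206 at an unadjusted p under 0.05 without replicate 1 and replicate 2).

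**Figure D4:**
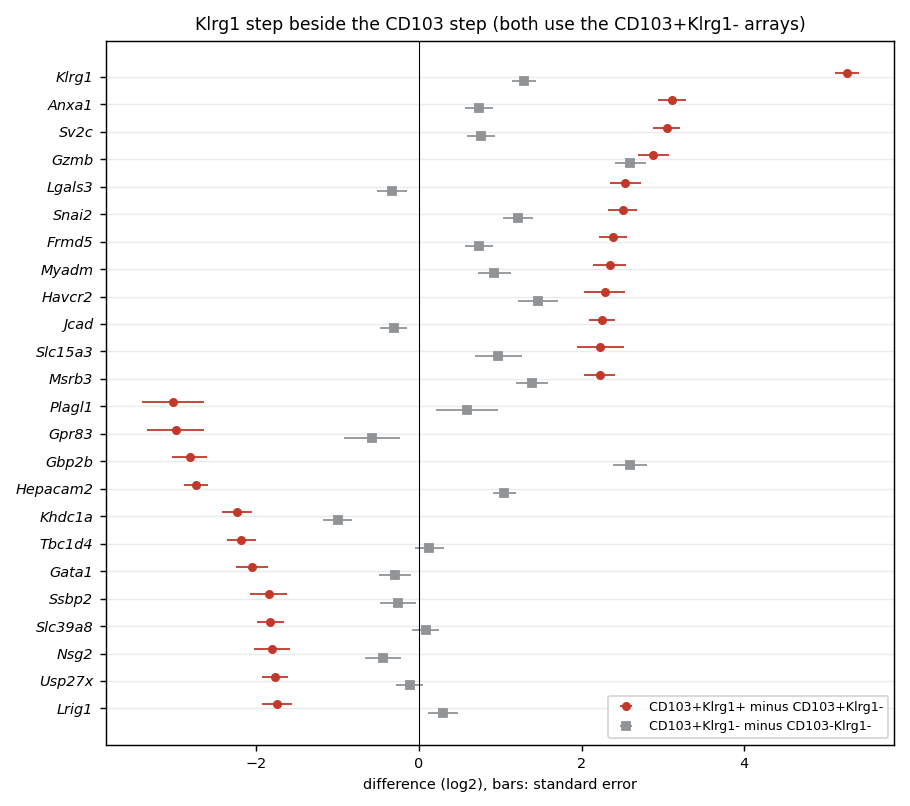
Log2 differences with standard errors (horizontal axis) of the 12 largest rises and 12 largest falls (rows) at the Klrg1 step (red circles, CD103+Klrg1+ minus CD103+Klrg1-) and at the CD103 step (grey squares, CD103+Klrg1- minus CD103-Klrg1-). Gzmb has both points on the right, at 2.88 and 2.60, whereas Gbp2b has its red point at -2.82 and its grey one at 2.59.

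Across the 9 groups of the series the 6 marker genes took different courses. Klrg1 averaged 14.16 ± 0.03 (SD, n = 2) in CD103+Klrg1+ cells, 13.57 ± 0.53 (n = 3) in homeostatic Foxp3+ cells and 13.38 ± 0.17 (n = 2) in LP Treg, then 11.22 ± 0.60 (n = 3) in homeostatic Foxp3- cells. The other 5 groups, CD103+Klrg1- cells included, lay between 7.61 and 8.90, and the first 3 groups were close enough for LP Treg and homeostatic Foxp3+ arrays to overlap. Gzmb averaged 11.86 ± 0.03 in CD103+Klrg1+ cells, below 13.22 ± 0.40 in LP Treg, 12.59 ± 0.34 in LP Tconv and 12.42 ± 0.32 in homeostatic Foxp3+ cells. Arrays of LP Tconv and homeostatic Foxp3+ cells overlapped in Gzmb. Gpr83 averaged 8.55 ± 0.70 in CD103+Klrg1+ cells, against 11.10 ± 0.14 in LP Treg, 10.02 ± 0.32 in DEC CD25+ cells and 9.78 ± 0.28 in homeostatic Foxp3+ cells. It was the lowest Gpr83 mean of the 6 groups that were Foxp3-GFP+ or CD25+.

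Anxa1 averaged 10.26 ± 0.24 in CD103+Klrg1+ cells, near 10.49 ± 0.59 and 10.98 ± 0.55 in the homeostatic Foxp3+ and Foxp3- cells, and 6.42 ± 0.22 in LP Treg. Lgals3 averaged 8.28 ± 0.30 in CD103+Klrg1+ cells, 9.37 ± 0.17 and 10.49 ± 0.18 in the homeostatic Foxp3+ and Foxp3- cells and 5.95 ± 0.35 in LP Treg. These 2 genes were thus low in LP Treg, where Klrg1 was high. Havcr2 averaged 8.41 ± 0.35 in CD103+Klrg1+ cells, above 7.30 ± 0.38 in LP Treg and 6.47 ± 0.79 in homeostatic Foxp3+ cells, the remaining groups lying under the filter. Those groups come from other strains, organs and transfers, so their levels are given as a description with no test against the lymph node arrays. Array medians also differed, at 68.5 and 63.7 intensity units on DEC CD25- replicates 3 and 4 and 75.5 to 81.1 on the other 21 arrays, and whether all arrays were normalized together is not given in the sources used here.

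**Figure D5:**
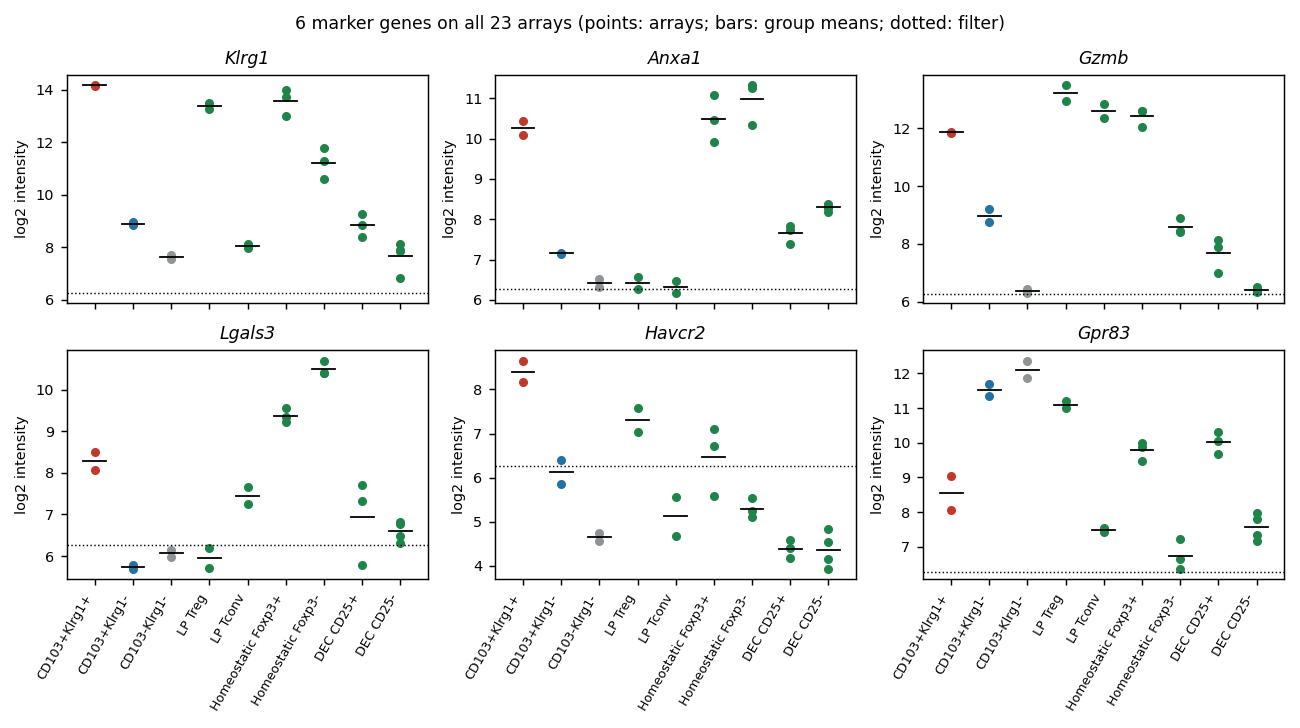
Log2 intensity (vertical axes) of the 6 marker genes on all 23 arrays by group (horizontal axes); points are arrays, bars group means and the dotted line the filter at 6.26. CD103+Klrg1+ cells have the highest Klrg1 mean, 14.16, while Anxa1 and Lgals3 are highest in the homeostatic Foxp3- groups and Gzmb in LP Treg.

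The called genes were also looked up in comparisons of Foxp3+ or CD25+ with other CD4+ cells, fitted on the 17 arrays that the Klrg1 step did not use. Of the 51 risen genes tested in both fits, 15 (29.4%) were higher in LP Treg than in LP Tconv, where 1.26% of all genes were, Klrg1, Havcr2 and Ccr2 among them. They made up 10.5% of the genes called higher there, and without Klrg1, on which the cells were sorted, they were 14 of 50. Another 2 risen genes, 5033430I15Rik and Chsy1, were lower in LP Treg (3.92%, background 0.897%). In homeostatic Foxp3+ against Foxp3- cells 5 (9.80%) were higher, against a background of 0.607%: Arnt2, Gzmb, Klrg1, Neb and Sv2c, or 4 of 50 without Klrg1. There 3 (5.88%, background 0.633%) were lower, Gcnt1, Id2 and Nav2, with Id2 at -1.73 ± 0.34 (adjusted p = 0.0153). In DEC CD25+ against CD25- cells 3 (5.88%, background 0.29%) were higher, Fgl2, Neb and Sytl2, and 0 were lower (background 0.0791%). The median difference over all genes was 0.17 in the DEC comparison, against -0.01 in the lamina propria and -0.03 in the homeostatic one. Foxp3 measured 6.92 to 8.48 on the DEC CD25- arrays, against 4.57 to 4.81 on the LP Tconv and homeostatic Foxp3- arrays. The DEC counts are therefore not like for like with the others.

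Of the 29 fallen genes tested in both fits, 5 were higher (2510009E07Rik, Adamts6, Gbp2b, Gpr83, Plagl1) and 4 lower (Cd96, Nsg2, Pdlim1, Ssbp2) in LP Treg than in LP Tconv (background 1.26% and 0.897%). In homeostatic Foxp3+ against Foxp3- cells 2 were higher (Gpr83, Plagl1) and 3 lower (Asap1, Cd96, Nsg2), and in DEC CD25+ against CD25- cells 2 were higher (Gpr83, Rcn1) and 0 lower. Gpr83 was higher in LP Treg by 3.62 ± 0.32, in homeostatic Foxp3+ cells by 3.04 ± 0.26 and in DEC CD25+ cells by 2.46 ± 0.24, each against its own Foxp3- or CD25- group. Plagl1 was higher in LP Treg by 3.56 ± 0.46 and in homeostatic Foxp3+ cells by 2.29 ± 0.37. Cd96 differed by -1.49 ± 0.30 and Nsg2 by -1.53 ± 0.37 between LP Treg and LP Tconv, the same sign as at the Klrg1 step.

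Promoters of the called genes were compared with those of all genes tested, over RefSeq windows of 300 bases (250 before to 50 after a start). Windows were found for 40 of the 52 risen genes (61 windows) and 24 of the 31 fallen genes (31 windows). The AP-1 letters TGANTCA occurred in 13.1% of windows of risen genes and 16.1% of fallen genes, against 5.27% of windows of all genes tested and 7.81% of all windows in the table. The Blimp-1 letters AAAGNGAAA occurred in 1.64% of windows of risen and 12.9% of fallen genes (4 windows, Gbp2b among them), against 2.92% over all genes tested and 3.07% of the table. RUNX letters gave 13.1% of windows of risen and 19.4% of fallen genes, against 12.9% over all genes tested and 16.8% of the table, and T-box letters 16.4% and 19.4%, against 11.4% and 14.5%. The forkhead letters GTAAACA gave 8.20% of windows of risen and 6.45% of fallen genes, against 2.85% over all genes tested and 3.65% of the table. The TCF/LEF letters CTTTGA gave 4.92% and 16.1%, against 12.1% over all genes tested and 5257 of the 32851 windows of the table. The ETS letters CCGGAAG gave 4.92% and 3.23%, against 16.9% over all genes tested and 8.86% of the table. Both strands were searched, windows of 1 gene can overlap, and each share of called genes rests on 10 windows or fewer. A match is a run of letters and not a measured binding site.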

How the data were processed

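Transcript levels of sorted CD4+ cells were read on Affymetrix M430v2 arrays. The values deposited by the authors are in the unit intensity, made with the RMA algorithm in GenePattern per the series' design text and the submitters' processing notes, whose version is not given in the sources used here, and lie on a linear scale. Log2 was taken with no pseudocount. Of 45101 probe sets, 34945 carried 1 gene symbol, and 932 with several, 9160 without and 64 controls were not used. Each of 18193 genes was represented by its brightest probe set on average, across the 23 arrays. Genes whose mean in at least 1 lymph node group exceeded 76.7 intensity units (6.26 on the log2 scale), the median of the 6 lymph node arrays, were tested.

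A mean for each of the 3 lymph node groups was fitted with limma 3.58.1 in R 4.3.3 (lmFit, eBayes, residual degrees of freedom 3, prior 3.70), and the same was done over the other 17 arrays. All tests were two-sided, with Benjamini-Hochberg adjustment over all genes tested and calls at an adjusted p under 0.05. Errors of differences are standard errors of the fit, with 2 arrays a group in lymph node and lamina propria, 3 in the homeostatic groups and 3 and 4 in the DEC groups. A fold is "at least" where the lower mean lay below the filter, since background holds up low values. Tables and figures used Python 3.11.15, pandas 2.3.3, numpy 2.4.6 and matplotlib 3.10.9. The fit was tested on simulated data.

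Arrays hold RNA pooled from several mice, so p-values measure the spread between pools, and the labels do not say whether arrays with the same number share mice. Residuals of same-number arrays correlated at 0.37, 0.73 and 0.39 between the group pairs, and with 2 numbers only they were not treated as pairs. No scan dates are given in the sources used here. Named genes were the sort genes, 6 markers, the 12 largest rises and falls among called genes (clone names counted, not named), up to 4 members of smallest p and the called ones in each of 32 lists, and 8 genes of the contrast of steps. Mki67, Cd8a, Csf1r and genes shared between the steps were named after their values were seen. Members and lists were chosen with earlier results of these data known. Alternatives were the arrays that give the spread, a replicate block, normalization, filter, probe set rule, prior, weights, pseudocount, fold and leaving out arrays. Promoter windows and their coordinates came from RefSeq (GRCm38.p6), and protein sequences were not used here.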

Additional observations from a re-analysis of the deposited data

Results flagged for a closer look

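A closer look is due at 2 markers whose difference between Foxp3+ or CD25+ cells and their counterparts was not the same in the other 3 settings of the series, tested as a difference of differences with limma over 12468 genes of 17 arrays. For Klrg1 the difference was larger in the lamina propria than in the DEC setting by 4.18 ± 0.57 on the log2 scale (adjusted p = 0.00283) and larger than in the homeostatic setting by 3.00 ± 0.58 (adjusted p = 0.0283). Klrg1 was also high in homeostatic Foxp3- cells (11.22 ± 0.60, SD, n = 3) and low in LP Tconv (8.04 ± 0.10, n = 2). For Gzmb the homeostatic difference exceeded that in the DEC setting by 2.56 ± 0.38 (adjusted p = 0.00824), and the lamina propria minus homeostatic value was -3.20 ± 0.43 (adjusted p = 0.00283). Gzmb was at 12.59 ± 0.34 in LP Tconv (n = 2), against 8.59 ± 0.26 in homeostatic Foxp3- cells (n = 3). In none of these settings do the labels name a sort on Klrg1. The settings also differ in strain and cell source, and the DEC cells were sorted on CD25 in place of Foxp3-GFP. These cannot be told apart from the setting. DEC CD25- replicates 3 and 4 had the lowest array medians of the series, 68.5 and 63.7 intensity units.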

How the results depend on the processing

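The 83 genes called at the Klrg1 step became 39 with the spread from 10 C57BL/6 arrays and 468 with the replicate number as a block, which kept all 83. Leaving out 1 array gave 3 to 105. The other settings gave 76 to 123 calls, of which all 23 arrays kept 51 of the 83 and means over probe sets 54. The 19 calls of the CD103 step became 12 with all 23 arrays, 11 with 10 C57BL/6 arrays, 128 with the replicate block, 34 after quantile normalization, 11 with means over probe sets and 0 to 17 with 1 array left out (0 without CD103+Klrg1- replicate 1 or 2, where 614 and 311 genes had an unadjusted p under 0.05 in limma). With the block 17 of 58 cell cycle genes were called higher and 0 lower, Prc1 among them (adjusted p = 0.00888, against 0.218 without it), where 268 of all genes were called higher. Among other lists without a call in the main fit, the block called 1 rise and 3 falls of 22 integrin and adhesion genes. It also called 3 rises and 2 falls of 29 immediate early and NF-kB response genes. The 17 TNF receptors and 25 glycolysis and hypoxia genes kept 0 calls, where 200 of all 11444 genes were called lower. The 3 calls for the difference of steps became 25 with the replicate block, 6 with a trend and robust prior and 0 to 7 with 1 array left out. Signs turned for Cd4 (-0.36 to 0.20 with 1 array left out, 0.08 without CD103+Klrg1- replicate 1 and 0.20 without CD103+Klrg1+ replicate 2) and Il2ra (-0.49 to 0.18, 0.18 being without CD103+Klrg1+ replicate 2), both never past the threshold. Klrg1, Gzmb and Hepacam2 stayed past it under all 18 alternatives run for each gene. The cause of these changes was not tested. Leaving out any 1 of the 6 lymph node arrays lowers the degrees of freedom by the same amount. With 2 arrays a group and no detection calls, genes near 6.26 log2 intensity are the least certain.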

Other observations

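Genes of survival and metabolism were not described above. Of 24 tested Bcl2 family and apoptosis genes 0 were called by limma (6 at an unadjusted p under 0.05). Bcl2, the survival factor, averaged 10.27 ± 1.03 in CD103+Klrg1+ cells and 12.34 ± 0.21 in CD103+Klrg1- cells (SD, n = 2 each), with arrays apart, but did not pass (-2.06 ± 0.44, adjusted p = 0.127), and Bmf, a pro-apoptotic relative, differed by 1.25 ± 0.23 (adjusted p = 0.081). Of 38 interferon-induced genes 0 were called (3 at an unadjusted p under 0.05) with a median of -0.05, although Gbp2b, which is not on that list, was among the largest falls. Of 25 glycolysis and hypoxia genes 0 were called and 0 had an unadjusted p under 0.05. Limma also called 0 of 32 cytokine receptors, 21 STAT and SOCS genes and 17 TNF receptors (3 at an unadjusted p under 0.05 in each), 10 TNF ligands (3), 9 chemokines (2), 7 plasma cell markers (2), 7 CD8 T cell markers (2), 5 epithelial and stromal markers (1), 3 innate-like T cell markers (0) and 3 erythroid and platelet markers (0). Of 17 genes that conventional T cells express above Treg cells Id2 alone was called, and of 10 killer lectin and natural killer genes Klrg1 alone.

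Over the 9 group means of the series, the genes most like Klrg1 by Pearson's correlation were Glipr1 (0.952), Lgmn (0.939), Rhbdf1 (0.937), Plcd1 (0.927), Agpat4 (0.926) and Tmbim1 (0.921), a description over 9 points that share arrays and normalization. Lgmn was called at the Klrg1 step, and Glipr1 was not, at 11.42 and 11.04 in CD103+Klrg1+ cells, against 10.34 and 10.08 in CD103+Klrg1- cells (adjusted p = 0.0865).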
